A study of Gallus gallus with 20 samples.

Results

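The H3K4me3 landscape of the embryonic lens was taken as all regions of the deposited H3K4me3 peak list that lie on assembled chromosomes of the chicken genome (Gallus gallus, build GRCg7b). These were 11079 regions, out of 330579 in the 6 peak lists of the series. Lenses came from embryos at embryonic day 4.5 and were combined into 3 pools of about 44 lenses. Chromatin was profiled by CUT&RUN, in which an antibody tethers a nuclease that releases the DNA around its target, with 100000 nuclei per reaction. The series held 3 libraries for each of 6 targets: H3K4me3, the repressive mark H3K27me3, and the Polycomb proteins EZH2, SUZ12, JARID2 and AEBP2. IgG without a chromatin target had 2 libraries. The 3 H3K4me3 libraries, whose antibody was diluted 1 in 50, are represented by 1 list. No genotype or treatment differed between them, and the labels give the tissue only as lens, so fiber and epithelial cells were not separated. No value per library was used, no difference below was set against the spread between pools, and the read depth is unknown. Intervals are 95% exact intervals (Clopper-Pearson for shares, Poisson for densities). They cover counting error only, and neighbouring genes and peaks are not independent.

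Trimethylation of histone H3 at lysine 4 is written by the SET1 and MLL enzymes of the COMPASS complexes, erased by KDM5 demethylases and read by factors such as ING proteins and TAF3. It sits on nucleosomes around transcription start sites of active and poised genes, most of all at CpG-rich promoters, and unusually wide stretches of it are known from genes that set cell identity. At this stage of chick development the rear cells of the lens vesicle elongate into primary fiber cells filled with crystallins, while the front cells form an epithelium. The mark does not measure transcription.

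The list covered 13 Mb, or 1.25% of the chromosomes. Each peak carries a fold, the authors' ratio over the peak caller's background, with a median of 9.41 (quartiles 4.4 and 19.5, range 1.26 to 264). The median width was 1021 bp (quartiles 564 and 1542 bp, range 206 to 12168 bp). No 2 intervals overlapped.

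Peaks were first placed by the distance from the interval to the nearest end of any of 17839 protein-coding genes in the RefSeq table. The table has no strand, so a gene's start and its 3′ end could not be told apart, and it gives 1 span per gene without the start sites inside it. Most of the landscape lay directly on gene ends. Of the peaks, 6724 (60.7%, interval 59.8 to 61.6) overlapped an end, and 1833 more (16.5%) came within 1 kb of one. Another 1180 (10.7%) lay at 1 to 5 kb, 811 (7.32%) at 5 to 20 kb, 460 (4.15%) at 20 to 100 kb and 71 (0.641%) beyond 100 kb.

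The shape of the peaks changed at the first step away from an end and little after it. Distance runs from the edge of the interval, so a wide peak reaches an end by its size, which fixes part of this step in width. Peaks over an end had a median width of 1262 bp and a median fold of 14.2. Those that only came within 1 kb had 544 bp and 4.56, and those at 1 to 5 kb had 511 bp and 4.16. At 5 to 20 kb the medians were 599 bp and 4.57, at 20 to 100 kb 730 bp and 5.14, and beyond 100 kb 538 bp and 4.25. The 1 kb limit that defines a marked gene here ran through a population of weak, narrow peaks: the 68 peaks at 900 to 1000 bp had a median width of 448 bp and a median fold of 3.71, and the 76 at 1000 to 1100 bp had 458 bp and 4.02.

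**Figure D1:**
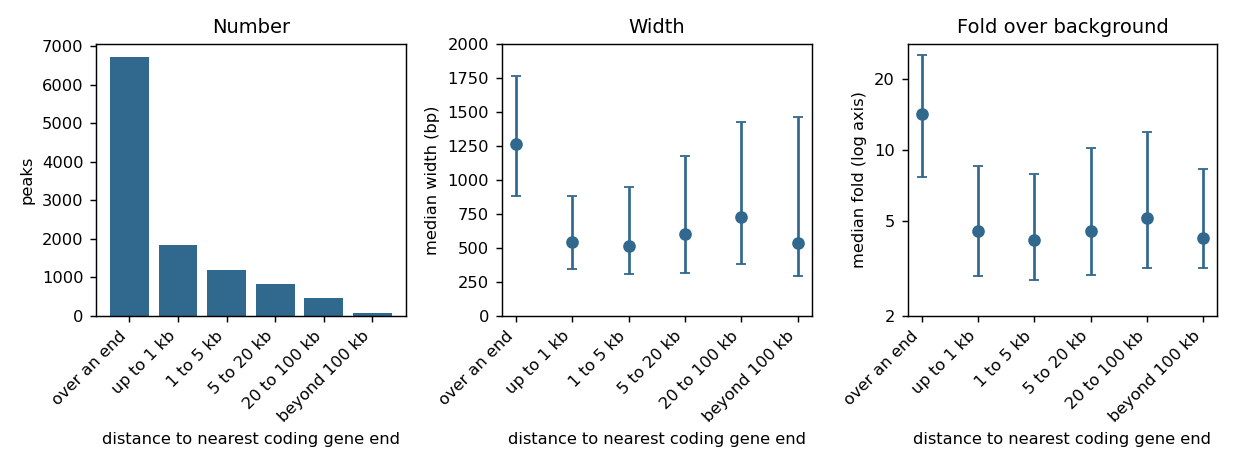
H3K4me3 peaks by the distance of the interval to the nearest coding gene end (x axis, in 6 classes from 0 upward): number of peaks (left), median width in bp (middle) and median fold over the caller's background on a log axis (right). Points are medians and bars run between the quartiles over peaks. Peaks over an end stand apart, with 1262 bp and a fold of 14.2, while the other 5 classes have medians of 511 to 730 bp and 4.16 to 5.14. Distance runs from the edge of the interval, which fixes part of the difference in width.

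Stronger and wider peaks lay at ends more often. In the decile of highest fold, 90.8% of peaks lay within 1 kb of an end and the median width was 1841 bp, against 54.1% and 361 bp in the decile of lowest fold. The share at ends was near 90% in the first 4 deciles (88.5% to 90.9%) and declined below them. By width, 53.3% of peaks up to 500 bp lay at ends, 78.1% of those of 500 to 1000 bp, 87.2% of those of 1 to 2 kb, 86.4% of those of 2 to 4 kb and 85.8% of the 127 peaks over 4 kb. A wider interval reaches an end more often by its size alone, and no allowance was made for it.

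Which side of the end the peaks lay on was examined at 5796 genes longer than 10 kb that had a peak at 1 end and none at the other. Peaks that also lay at another coding gene were kept, so a neighbour's peak can set the marked end and the side. Over all coding genes with a peak at an end, 52.4% had a highest-fold peak that also lay at another coding gene. The summit, the point of highest signal in a peak, lay inside the gene in 79.2% of them. Over all 5796 genes, with summits outside counted as negative, the median position was 149 bp inside the end (quartiles 68 and 270 bp inside). A single class of 100 bp, from 100 to 200 bp inside, held 2001 of the 5796 summits, against 253 from 100 to 200 bp outside. The intervals spanned the end in 79.3% of these genes, and the spanning peaks reached a median of 879 bp into the gene and 358 bp out of it. Genes marked at the end of lower coordinate (2874) and of higher coordinate (2922) gave medians of 148 and 150 bp.

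**Figure D2:**
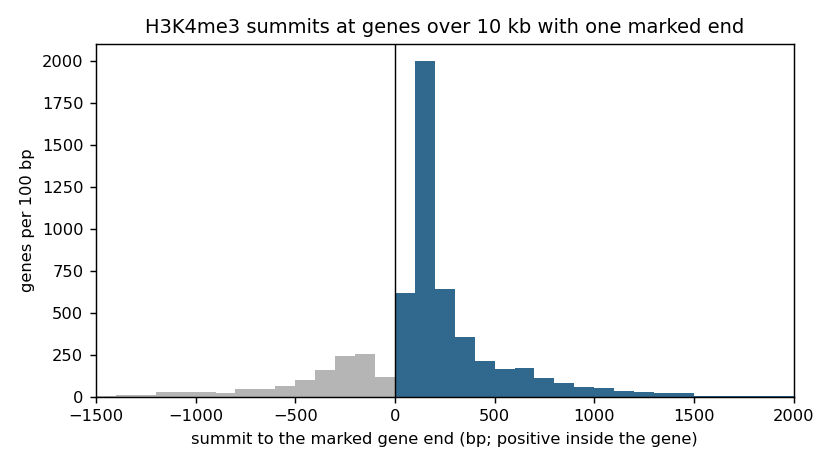
Distance of the H3K4me3 summit from the marked end (x axis, bp, positive inside the gene) at 5796 genes over 10 kb with 1 marked end, as genes per 100 bp (y axis). Blue bars lie inside the gene and grey bars outside it. The tallest bar, 100 to 200 bp inside, holds 2001 genes.

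At the level of genes, 10209 of 17839 coding genes (57.2%, interval 56.5 to 58) had a peak within 1 kb of an end and are called marked below. Since this is the background for all genes, the shares of families are read against it, and against the 66.4% of the 14300 genes that carry a symbol, which is the nearer comparison for named families. Genes with only a LOC identifier were marked in 20.3% of 3539 cases (19 to 21.7). Of all genes, 8694 were marked at 1 end, 1515 at both, 774 had peaks only inside and 6856 had none. The median of the highest fold at an end was 13.7 over marked genes, with a width of 1225 bp, and 13.9 and 1229 bp over those with a symbol.

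Gene length went with the pattern of marking. Among genes with a symbol, 53.1% of those up to 2 kb were marked, 63.4% of those of 2 to 5 kb, 69% at 5 to 20 kb, 68.5% at 20 to 100 kb, 59.7% at 100 to 500 kb and 48.1% of the 54 genes over 500 kb. The share with peaks only inside the gene was higher in each longer class, with 0, 0.528%, 2.76%, 7.47%, 13.5% and 18.5% of genes in the same order. In genes up to 2 kb, 70.9% of those marked counted as marked at both ends. The 1 kb windows at the 2 ends meet in such genes, so 1 peak can count at both without spanning the gene. For the same reason no peak can count as only inside in genes up to 2 kb. Longer genes leave more room between the windows, which fixes part of the rise in that share.

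Lens genes were taken from lists chosen with earlier results of these data known, so they are no independent check of the tissue. Of 26 lens regulators, 21 (80.8%, interval 60.6 to 93.4) were marked, against 66.4% of genes with a symbol, and of 26 lens fiber genes 19 (73.1%, 52.2 to 88.4). Both intervals include the share of all genes with a symbol. The median width was 3189 bp at marked regulators and 2370 bp at marked fiber genes, against 1229 bp at all marked genes with a symbol. Their median folds were 45.9 and 15.3, against 13.9.

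The widest peaks of the regulators were those of PAX6, TFAP2A and MAB21L1. PAX6, the homeodomain factor without which eyes do not form, carried the widest peak of the whole list, 12168 bp on chromosome 5 (chr5:5406976-5419143, fold 70.2). TFAP2A, an ectodermal transcription factor, had 9066 bp (fold 74.8), and MAB21L1, which the mouse lens needs, 8877 bp (fold 105). MAFA, a crystallin gene activator, had 7170 bp, PROX1, which mouse fiber cells need to leave the cell cycle, 6819 bp, MAF 6324 bp and SOX3 6260 bp. SIX3 had the highest fold of the list of regulators, 134. The lowest folds were 7.28 at ETV5, a factor induced by FGF signalling, 7.56 at MEIS2, a homeodomain factor, and 8.42 at the heat shock factor HSF2, with widths of 1239, 1410 and 1223 bp. EYA1, SIX6 and HSF4 had no peak, and GATA3 and TFAP2B had peaks only inside the gene.

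Fiber genes are given by product. Among membrane and cytoskeleton genes, EPHA2, an ephrin receptor, had a fold of 65.2 in a peak shared with RSG1, the beaded filament genes BFSP2 and BFSP1 had 35.7 over 2528 bp and 16.6 over 5043 bp, and the gap junction gene GJA3 had 29.9 over 3786 bp. The water channel gene MIP had 36.6 over 4257 bp, in a peak that also lay at TIMELESS. Crystallin genes, which encode the most abundant proteins of fiber cells, had lower folds. Of 10 crystallin family genes 6 were marked, with a median fold of 5.65 and 4 below the median of 13.9. CRYBA2 had 18.3 over 2370 bp, CRYBA1 14.3 over 2692 bp, CRYAB 5.93 over 2437 bp, CRYAA 3.61 over 1323 bp and CRYBB1 2.04 over 939 bp. For 3 of the 6 marked family genes the peak also lay at another coding gene, among them CRYBB1, whose peak also lay at TPST2. ASL1, a delta crystallin gene of the chicken, had 7.05 over 2077 bp. CRYBB2, CRYBB3 and CRYGS had no peak, and CRYGN had one only inside the gene. Outside the crystallins, the fiber genes without a peak were DNASE2B, the nuclease gene of fiber cell nuclear breakdown in mice, LGSN, which encodes the lens protein lengsin, and HSF4, which stands in both lists.

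Cells from outside the lens could have been carried along in dissection, and most of their marker genes were unmarked. H3K4me3 was at 1 of 14 vascular endothelium markers (CLDN5, fold 2.72), 2 of 13 blood markers (GYPC 15.8 and LMO2 9.89), 3 of 12 retinal pigment epithelium markers and 3 of 15 neural retina markers, where the folds were 3.37 to 7.3. The haemoglobin genes and the endothelial genes KDR, PECAM1 and CDH5 had no peak, and the pigment genes TYR and DCT had peaks only inside the gene, with folds of 4.44 and 4.08. Periocular mesenchyme had 6 of 16, of which 5 had folds from 2.17 at COL1A1 to 6.77 at FOXC2 and PDGFRA, a growth factor receptor that rodent lens epithelium also makes, had 52.8 over 6680 bp. Surface and corneal ectoderm, the tissue the lens comes from, had 5 of 13, led by GRHL3 with 30.6 in a peak shared with SRSF10. The part of such cells in these peaks was not tested.

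Gene families were then ranked by the share of their members that were marked. Of 51 families with at least 15 genes, 13 were marked at 90% or more of members and 17 at 30% or less. The upper group was made of protein synthesis, protein turnover, energy and gene expression machinery. All 71 cytosolic ribosomal protein genes were marked (100%, interval 94.9 to 100). For 40 of them the highest-fold peak also lay within 1 kb of another coding gene. That of RPL3L lay outside the gene, over an end of NDUFB10. Marked too were 68 of 72 mitochondrial ribosomal protein genes, 39 of 40 translation initiation factors and 38 of 39 proteasome subunits. Ubiquitin-conjugating enzymes had 31 of 32 and ubiquitin-specific proteases 40 of 44. Energy metabolism had 18 of 18 ATP synthase subunits and 41 of 43 complex I subunits and assembly factors. The transcription and splicing machinery had 19 of 19 TBP-associated factors, 27 of 28 mediator subunits, 22 of 24 RNA polymerase subunits and 38 of 39 spliceosomal proteins.

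These families differed in strength although nearly all their members were marked. Cytosolic ribosomal protein genes had a median fold of 41.7, with 67 of 71 at or above the median of marked genes with a symbol. RPL37 reached 222, RPL39L 200, RPS27 150 and RPL36A 145, and the lowest were RPS27L with 1.51, a paralog of RPS27, and RPS26 with 4.46. Translation initiation factors had a median of 30.3, spliceosomal proteins 27.1, proteasome subunits 24 and mediator subunits 23.4. Mitochondrial ribosomal protein genes had 16.2 and a median width of 998 bp, against 1601 bp for the cytosolic set. RNA polymerase subunits had 12.3, below the median over all marked genes.

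In the 13 families at 90% or more, 18 of 489 genes were not marked, and several of these had a peak nearby. A peak inside the gene was present in 9 of the 18, and the nearest peak lay within 5 kb of an end in 7. MRPS5, MRPS31 and MRPS26 had peaks 1.3, 1.77 and 2.11 kb from an end. Among those with no peak in the gene, EIF4E1B, a cap-binding protein known from oocytes, was 1.57 kb from a peak of fold 3.74, and MRPL9 was 124 kb from the nearest peak. The V-ATPase, the proton pump of vesicles, was marked at 15 of 18 subunits, and the genes without a peak were ATP6V0A4, ATP6V0D2 and ATP6V1G3, which in mammals are the tissue-restricted forms of subunits that have a broadly expressed partner.

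**Figure D3:**
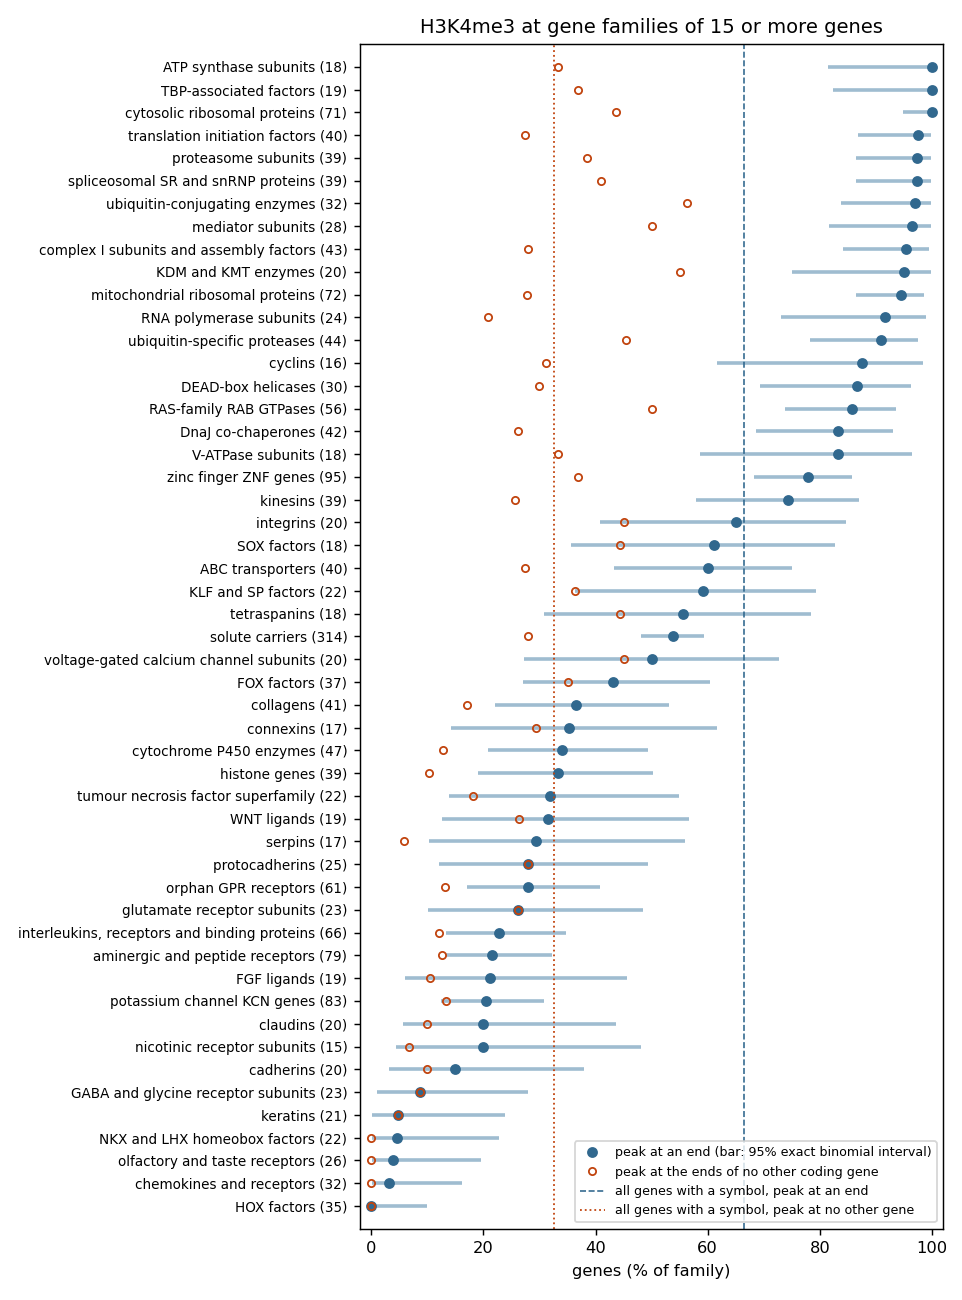
Gene families of 15 or more genes (rows, number of genes in brackets) by the share of members with an H3K4me3 peak within 1 kb of an end (filled points, x axis in percent, bars 95% exact binomial intervals), and by the share whose highest-fold peak lies within 1 kb of no other coding gene (open points). Dashed and dotted lines give the same shares over all genes with a symbol, 66.4% and 32.5%. Machinery of the cell fills the upper rows, and HOX, chemokine, receptor and keratin genes the lowest.

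Genes listed for the writing, erasing and reading of H3K4 methylation were themselves marked throughout, though not every listed member acts on trimethylation or on H3K4. All 13 matched COMPASS and MLL writers had a peak, led by KMT2D with a fold of 137 and KMT2C with 74.2, the catalytic subunits of MLL complexes at enhancers. All 17 matched genes of the list of erasers and readers did too. KDM2A, a demethylase gene whose protein binds CpG islands, had a fold of 63.8. The chromatin remodeller gene CHD1 had 45.5, KDM5B 33.8 over 3627 bp and ING1 31.6 over 4204 bp. Of glycolysis genes 17 of 19 were marked. SLC2A1, the glucose transporter GLUT1, stood first there with a fold of 156 over 10908 bp (chr21:6448817-6459724), the second-widest peak of the list, and ALDOA had a peak only inside the gene. DNA replication genes were marked at 28 of 30 but with a median fold of 8.34, and 27 of 30 cilium and centrosome genes at 9.06, both below 13.9.

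Transcription factor families ranged from 77.9% marked to 0. Zinc finger genes named ZNF were marked at 74 of 95 (68.2 to 85.8). KLF and SP factors were marked at 13 of 22 (36.4 to 79.3) and SOX factors at 11 of 18 (35.7 to 82.7). The last 2 intervals include the 66.4% of all genes with a symbol. Among SOX genes, SOX1 had 104, SOX4 50.1 and SOX11 38.1, while SOX10 and SOX17, regulators of neural crest and endoderm, had no peak. FOX factors were marked at 16 of 37: FOXP4 had 176, FOXO3 97.7 and the lens epithelium factor FOXE3 48.2 over 5233 bp, and the endoderm factors FOXA1 and FOXA2 had none. TBX factors had 2 of 13, NKX and LHX homeobox factors 1 of 22, which was LHX2 at 7.3 in a peak shared with DENND1A, and HOX factors 0 of 35 (0 to 10).

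Among signalling genes, the frizzled receptors were marked throughout and the WNT ligands in part. All 10 frizzled genes, the receptors for WNT proteins, were marked (69.2 to 100), with folds from 2.55 at FZD8 and 3.89 at FZD5 to 83.6 at FZD7 and 108 at FZD1. WNT ligand genes were marked at 6 of 19 (12.6 to 56.6), and of these WNT2B had 87.3 over 6428 bp, WNT5A 80.5 over 4362 bp and WNT7A 26.4. FGF ligand genes were marked at 4 of 19, with FGF7 at 62.3, and FGF1, FGF2 and FGF10 had no peak at an end. Receptors for amines and peptides were marked at 17 of 79 and orphan GPR receptors at 17 of 61.

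Transport genes are given as carriers and then channels. Solute carriers were marked at 169 of 314 (53.8%, 48.1 to 59.4), led after SLC2A1 by the glutamine carrier SLC38A1 with 72.8. ABC transporters were marked at 24 of 40 (60%, 43.3 to 75.1), an interval that includes the 66.4% of all genes with a symbol. Potassium channel genes were marked at 17 of 83 (20.5%, 12.4 to 30.8), GABA and glycine receptor subunits at 2 of 23, nicotinic receptor subunits at 3 of 15 and glutamate receptor subunits at 6 of 23, where no fold exceeded 10.5. KCNIP2, a channel-interacting protein gene, had 52.2 over 5156 bp. Voltage-gated calcium channel subunits were marked at 10 of 20.

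Adhesion and matrix families ranged from near the 66.4% of all genes with a symbol to far below it. Cadherins had 3 of 20, and CDH2, the N-cadherin of lens cells, led with 52.3 over 3465 bp, while CDH1, the E-cadherin gene, had no peak. Connexins had 6 of 17, led by GJA1, the connexin of lens epithelium, with 101 over 3387 bp. Collagens had 15 of 41, headed by COL4A5 and COL4A6, basement membrane chains that share 1 peak of 142 over 4412 bp. Integrins had 13 of 20 (65%, 40.8 to 84.6), with ITGA7 at 42.4 in a peak shared with MCRS1 and ITGB1 at 40.8. Laminins had 7 of 12 (58.3%, 27.7 to 84.8), with LAMB2 at 21.7 and LAMA1 at 17.7. Both intervals include the share of all genes with a symbol. Keratins had 1 of 21, KRT18 at 6.03, and claudins 4 of 20, with no fold above 10.7.

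Genes of immunity and of other organs made up most of the remaining unmarked families. Chemokines and their receptors were marked at 1 of 32, avian beta-defensins at 0 of 13 (0 to 24.7), olfactory and taste receptors at 1 of 26, toll-like receptors at 2 of 10, and interleukins with their receptors at 15 of 66. Lists of genes known from other organs had 9 of 26 for the germ line, 6 of 27 for liver secreted proteins, 3 of 12 for egg white and yolk, 3 of 24 for pancreas and gut, 4 of 29 for skeletal and heart muscle, 7 of 28 for photoreceptors and 6 of 30 for T cells, B cells and myeloid cells.

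Many carriers in these 7 lists had a peak that also lay at another gene. Over the 7 lists, 36 of 174 genes were marked (20.7%, 14.9 to 27.5), and for 30 of the 36 (83.3%, 67.2 to 93.6) the highest-fold peak was also within 1 kb of another coding gene, against 51% over all marked genes with a symbol and 2 of 21 marked lens regulators. Sharing was also frequent in the 13 families marked at 90% or more. There it ranged from 41.9% of marked ubiquitin-conjugating enzyme genes to 77.3% of marked RNA polymerase subunit genes. Counting only genes whose peak lay at no other coding gene left 6 of 174 (3.45%, 1.28 to 7.35), against 32.5% of all genes with a symbol and 73.1% of lens regulators (19 of 26). This grouping of 7 lists was made after their values had been seen, and it decides the share. With the neuronal list and the 6 marker lists of cells around the lens added, 38 of 69 marked genes shared their peak (55.1%, 42.6 to 67.1), an interval that includes the 51% of all marked genes with a symbol. In this wider set, genes whose peak lay at no other coding gene were 31 of 280 (11.1%, 7.65 to 15.3), against the 3.45% of the 7 lists. Neuronal genes shared in 4 of 14 cases and periocular mesenchyme markers in 0 of 6. BTK, a B cell kinase, had a fold of 145 in a peak shared with RPL36A and GLA, LCK, a T cell kinase, had 44.8 with HDAC1, and CD3D had 20.1 with ZW10. DMC1, the meiotic recombinase, had 45.9 with the helicase DDX17, and SPO11, which makes meiotic breaks, had 35.6 with RAE1. In the 17 families marked at 30% or less, 43 of 104 marked genes shared their peak (41.3%, 31.8 to 51.4), with 6 of 17 among potassium channels, 7 of 17 among receptors for amines and peptides, and 0 of 7 among protocadherins. Those that shared included CHRNB2 with UBE2Q1 at 88.2, KCNH4 with RAB5C at 56.5, CXCR1 with ARPC2 at 40.6 and TAS1R1 with ZBTB48 at 21.3. Which of the genes at such a peak it belongs to cannot be told apart with these files.

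Shared peaks were common wherever genes were close. Of 15096 pairs of neighbouring coding genes that do not overlap, 2405 had a peak within 1 kb of both facing ends. The share was 68.3% (65.8 to 70.7) for gaps under 200 bp, 56.9% at 200 to 500 bp, 42.8% at 500 to 1000 bp, 14.7% at 1 to 2 kb and 0.444% at 2 to 5 kb. The windows fix part of that decline, since a gap over 2 kb needs a peak longer than the space left between them. The strongest shared peaks lay between OGT, which attaches a sugar to nuclear proteins, and TAF1 (fold 212, gap 376 bp), between UPF3B and RPL39L (200, 93 bp), between FBXL12 and UBL5 (160, 32 bp) and between JTB and RPS27 (150, 168 bp). A peak at 2 genes had a median fold of 14.2 and width of 1244 bp (2948 peaks), against 10.1 and 1048 bp for a peak at 1 gene (5417 peaks). Without strand, divergent starts and ends of convergent genes cannot be told apart.

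Histone genes, which every dividing cell uses, were mostly unmarked. Of 39 histone genes 13 were marked (33.3%, 19.1 to 50.2). Genes whose symbols begin with HIST, all 29 on chromosome 1 and mostly the clustered copies used in S phase, were marked at 7 of 29 (24.1%, 10.3 to 43.5), and the other histone symbols at 6 of 10 (60%, 26.2 to 87.8), among them H2AZ2 at 29.2 and H2AFZ at 12.1, each in a peak shared with a neighbour, and H1FX at 19.6. This split was made after the values had been seen. Many of the clustered copies are nearly identical in sequence. The handling of reads that match several copies was not stated, and its part in the result was not tested.

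The peaks of highest fold were a mixed set. Besides a peak inside WIZ, described below, they included RPL37 (222), MEX3A, an RNA-binding protein gene (214), the OGT and TAF1 pair (212), a peak inside UBTF, a transcription factor gene of the ribosomal DNA (212), the UPF3B and RPL39L pair (200), FOXP4 (176), ARID1B, a chromatin remodeller subunit gene (175), and the FBXL12 and UBL5 pair (160). The 10 widest were at PAX6 (12168 bp), SLC2A1 (10908 bp), ZNF488 with ANTXRL (9653 bp), HMX1, a homeobox gene of the developing eye (9311 bp), EFNB2, an ephrin ligand gene (9208 bp), TFAP2A (9066 bp), MAB21L1 (8877 bp), the growth factor receptor gene FGFR3 (8467 bp), TGFB2 (8216 bp) and a place on chromosome 6 that is 2.79 kb from the nearest end (8021 bp). SLC2A1 came near the top of both orders.

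Away from ends, 1342 peaks (12.1%, 11.5 to 12.7) lay over 5 kb from every coding gene end. The summit was inside a coding gene in 1155 of them, and these had a median fold of 5.07 and width of 713 bp, while the 187 between genes had 3.86 and 399 bp. An annotated noncoding gene ended within 1 kb of 163 of the 1342, and those were wider, at 1035 bp against 601 bp for the rest. The strongest was also the strongest of the list, a peak of 1164 bp with a fold of 264 inside WIZ, a zinc finger gene, on chromosome 30 (chr30:316820-317983), 10.7 kb from the nearest end. Next came peaks inside PPP4R2, a phosphatase subunit gene (113), SEMA3A, an axon guidance ligand gene (106, 114 kb from any end), FOXJ3 (85.2), ELMSAN1 (82.3), FAM179B (77.3), GNAS, the G protein gene with several promoters in mammals (76.5), TOX2 (74.2), LOC107051757 (73.2) and EIF2B5 (70.4). The peaks in TOX2 and LOC107051757 lay at the end of an annotated lncRNA, and the other 8 at no annotated noncoding gene end.

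The 774 genes with peaks only inside had a median length of 45 kb, against 15.1 kb for genes marked at an end and 6.86 kb for genes with no peak. Their highest inside peak had a median fold of 8.42 and a width of 1025 bp, and in 190 of them it lay at the end of another coding gene. UBTF (212), PPP4R2 (113), SEMA3A (106) and ZCCHC11 (99.8) were among the highest.

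The genes with most peaks included long models that span others. GIMAP7L5 with 32, LOC101747452 with 26 and MPHOSPH10 with 17 are annotated over 598, 501 and 1077 kb, and these spans contain 33, 41 and 14 other coding genes, at whose ends 25, 23 and 10 of the peaks lie. BCOR, a corepressor gene, had 9 peaks in 58.7 kb with 3 at other genes' ends. The transcription factor genes ZFHX3 and FOXP1 had 9 and 8 peaks, no other coding gene in their spans and median widths of 252 and 384 bp, and the cytoskeletal linker gene MACF1 had 8. SNED1 had 8 peaks within 19.8 kb, and BAHCC1 and F11R had 7 each.

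Density along the genome was examined in 1063 windows of 1 Mb grouped by their number of coding genes. Peaks per Mb were 0.577 (0.288 to 1.03) in windows with no gene, 1.71 with 1 to 4 genes, 4.96 with 5 to 9, 9.22 with 10 to 19, 14.4 with 20 to 29 and 31.5 (30.6 to 32.4) with 30 or more. Per gene, the counts went the other way and far less, from 0.672 in windows with 1 to 4 genes over 0.667, 0.649 and 0.592 to 0.599 in the densest. The share of genes with a symbol that were marked was 55.6%, 62.8%, 64.6%, 65.7% and 69.8% in the same order. A neighbour's peak can mark a gene, and close genes shared peaks more often. The part of such sharing in these shares was not tested. Peaks far from ends numbered 0.262 per Mb in windows without a gene and 2.81 per Mb in the densest. As a share of the peaks there, they ran the other way, with 45.5% (5 of 11 peaks), 19.8%, 16.6%, 13.4%, 13.4% and 8.91% from the windows without a gene to the densest. The window with most peaks was on chromosome 34 (chr34:1000001-2000000), with 119 peaks and 87 of 110 genes marked.

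**Figure D4:**
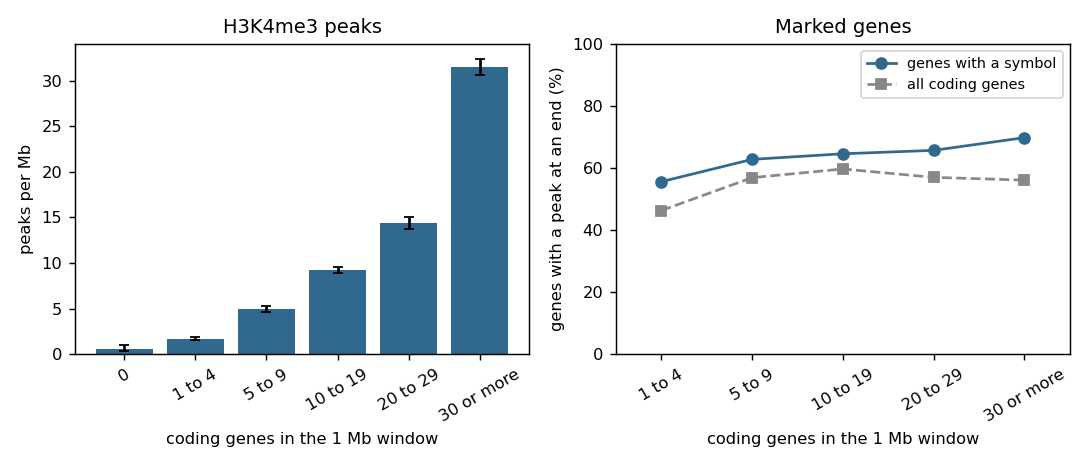
Windows of 1 Mb by their number of coding genes (x axis): H3K4me3 peaks per Mb with 95% exact Poisson intervals (left), and the share of genes with a peak within 1 kb of an end, for genes with a symbol (circles) and all coding genes (squares) (right). Density climbs from 0.577 to 31.5 peaks per Mb, while the share of marked genes with a symbol lies between 55.6% and 69.8%.

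Gene deserts, stretches of at least 500 kb between neighbouring coding genes, were nearly free of the mark. By definition a desert holds no coding gene, while 77.2% of all peaks lay within 1 kb of a coding gene end. The definition therefore fixes part of the low density, and of the ratio of gene-rich windows to deserts given below. The 153 deserts covered 126 Mb and held 27 peaks, 0.215 per Mb (0.142 to 0.313), and 134 of them held none. Of the 27 peaks 9 lay within 1 kb of a bordering gene, and 10 lay over 5 kb from any end, 0.0796 per Mb. The strongest of those 10 had a fold of 10.6 over 2593 bp and lay between GATA3 and CELF2, 52.3 kb from CELF2. Next were peaks between FANCL and BCL11A (6.75, at an lncRNA end), between LOC121107608 and MRPS35 (6.07), between USP25 and TSTD1 (4.57) and between SLITRK4 and SOX3 (3.92, 20.5 kb from SOX3). Genes that border a desert were marked in 120 of 233 cases with a symbol (51.5%, 44.9 to 58.1), against 66.4% of all genes with a symbol. On the desert side such a gene has no close coding neighbour whose peak could mark it, and the part of this was not tested.

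The longest stretches without a peak held few named genes. On chromosome 2, 5.96 Mb without H3K4me3 (chr2:69098346-75055706) held the cadherin genes CDH9, CDH10, CDH12 and CDH18 among 10 coding genes, and 5.16 Mb on chromosome 1 held KLHL1 and PCDH9 among 3. PCDH10, PCDH18, PCDH17 and PCDH8, further protocadherin genes, and SLITRK6 and SLITRK1, neuronal membrane protein genes, lay in the next 3 autosomal stretches, of 3.64, 3.36 and 3.23 Mb. The other genes with a symbol there were SLC7A11, OLFM4 and LECT1. In the stretches of 5.96 and 5.16 Mb, H3K27me3 had 4.03 and 0.194 peaks per Mb, against 22 over all chromosomes, EZH2 4.87 and 3.3 against 24.9, SUZ12 12.1 and 8.73 against 52.4, and JARID2 14.9 and 17.6 against 46.2. AEBP2, by far the longest list, had 252 and 242 per Mb, against 162. The longest of all, 9.42 Mb on Z (chrZ:73872665-83292127), had more genes. It held 44 coding genes, and the 5 with a symbol are all copies named ADCY10L. The other lists had few peaks there too, from 1 of H3K27me3 to 35 of JARID2.

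Chicken chromosomes range from large macrochromosomes to small, gene-dense microchromosomes, and peak density followed. Chromosomes of under 5 Mb had 29.8 peaks per Mb (27.6 to 32), those of 5 to 20 Mb 22.5 (21.7 to 23.3), those of 20 to 40 Mb 11.8 and those of 40 Mb or more 7.49 (7.28 to 7.72). The share of marked genes with a symbol varied less, with 63.4%, 70.6%, 65.3% and 64.2% in the same order. Over all coding genes the smallest class stood apart, with 34% marked, against 64.9%, 60.5% and 57.7%. Its peaks per coding gene were 0.39, against 0.71, 0.664 and 0.616, and 56% of its genes were LOC. The sex chromosome Z had 5.96 peaks per Mb and 68.6% of genes with a symbol marked, and W had 24 peaks, 2.64 per Mb, for 109 genes, 89% of them LOC.

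Peaks per coding gene were highest on chromosomes 28 (0.875), 23 (0.867), 38 (0.853), 15 (0.796) and 10 (0.764). Chromosome 38, of 0.667 Mb, had 58 peaks for 68 genes and 86.8% of them marked. At the low end, chromosomes 32 and 37 had no peak for 44 and 65 genes, 33 had 1 peak for 193 genes, 29 had 2 for 38 and 31 had 16 for 231. With chromosome 16 added after its 20 peaks for 180 genes had been seen, these 6 chromosomes held 751 coding genes. LOC identifiers made up 85.4% of them and 5.73% were marked, against 17% and 59.5% on the other 35. The other lists were short there too, with 3 H3K27me3, 3 EZH2 and 12 SUZ12 peaks on chromosome 33. Whether reads could be placed uniquely on these chromosomes was not tested.

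**Figure D5:**
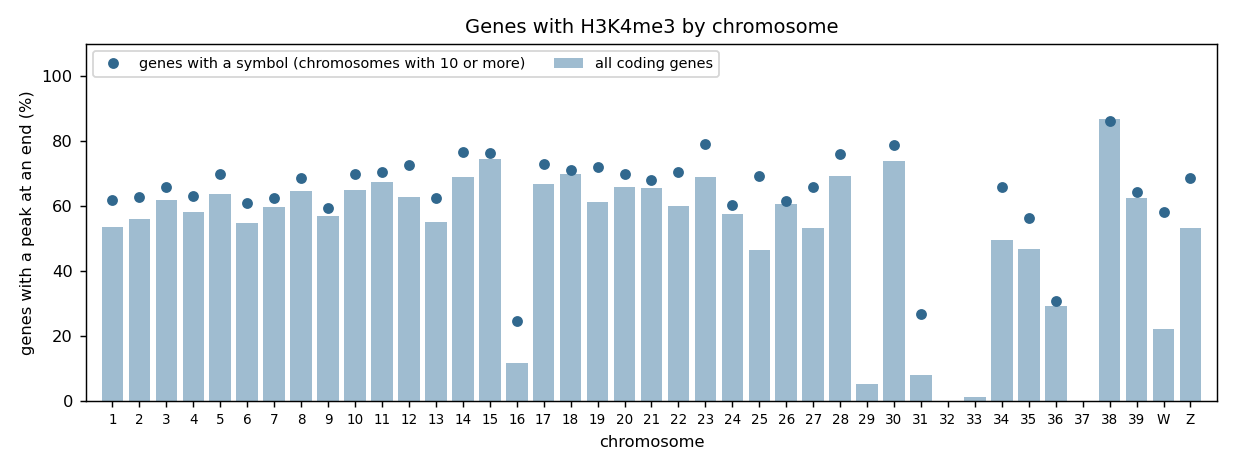
Share of coding genes with an H3K4me3 peak within 1 kb of an end (y axis, percent) on each chromosome (x axis): bars for all coding genes, points for genes with a symbol on chromosomes with 10 or more of them. Bars on chromosomes 29 and 31 to 33, 37 and 16 lie at 11.7% or lower, and that of chromosome 38 at 86.8%.

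Overlap with the 5 other lists, counted from 1 bp, differed between H3K4me3 peaks at ends and elsewhere, and these peaks also differed in width. At coding gene ends, 82.6% of H3K4me3 peaks overlapped SUZ12, 75.7% EZH2, 38.6% JARID2, 32.4% AEBP2 and 16.5% H3K27me3, and 6.94% overlapped none of the 5. These shares rest on the 1 bp minimum: over all H3K4me3 peaks, SUZ12 overlapped 78.8% and EZH2 71.4%, but 47.7% and 41.4% when 50% of the peak had to be covered, JARID2 36.7% but 9.9%, AEBP2 30.6% but 7.26%, and H3K27me3 17.3% but 13.1%. No chance level was computed. For the narrow peaks at 1 to 5 kb the shares were 56.8%, 51.5%, 28.1%, 19.3% and 19.1%, with 25.5% in none. Peaks over 5 kb away inside coding genes had 74.7%, 62.8%, 32.2%, 29.5% and 20.9%, with 13% in none. Width went with these shares: at ends, SUZ12 overlapped 95.5% of peaks over 2 kb wide and 58.3% of peaks up to 500 bp, whereas H3K27me3 overlapped 13.3% (11.4 to 15.3) of the wide ones and 31% (28.5 to 33.7) of the narrow ones. Size alone lets a wide interval touch more peaks, and no allowance was made for it. Narrow peaks were also the weaker ones, with a median fold of 3.28 up to 500 bp and 24.7 at 2 to 4 kb over all peaks. Of the upper 5540 peaks by fold, 8.52% overlapped H3K27me3, against 17.3% of all. Width and fold were not separated here. Among far peaks the H3K27me3 shares were 11% (6.4 to 17.2) over 2 kb wide and 22.8% (19.4 to 26.6) up to 500 bp. SUZ12 overlapped 93.8% (88.6 to 97.1) of these wide far peaks and 55.2% (51 to 59.5) of the narrow ones, near its shares at ends. For EZH2 the far shares were lower at like width, 66.4% and 46.8%, against 80% and 64.9% at ends. The level of IgG at these places was not used here.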

How the data were processed

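CUT&RUN libraries were processed by the submitters. Per the submitters' processing notes the tools were Trim Galore 0.6.4, Bowtie2 2.4.1 and MACS2 2.2.7.1, with build GRCg7b. The authors deposited 1 peak list per antibody with a fold (a ratio over the caller's background) and a −log10 q-value for each peak. The smallest deposited −log10 q was 1.32. Neither the pooling of libraries before calling nor the use of IgG as control is stated in the labels. Read depth is unknown.

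From the deposited intervals, peaks on chromosomes 1 to 39, W and Z were placed against the RefSeq gene table of GRCg7b with Python 3.11.15, NumPy 2.4.6, pandas 2.3.3 and SciPy 1.17.1. A gene is marked when a peak lies within 1 kb of either end. Chromosome length is the largest coordinate among genes and the peaks of the 6 lists. The functions were tested on planted and brute-force cases. No test across groups was possible with 1 list.

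Members, 62 families (defined by symbol patterns) and 22 lists (454 of 522 entries matched a symbol exactly) were chosen with earlier results of these data known, and some family patterns were corrected by name after values had been seen. Matching through synonyms was tried and dropped because it joined different genes. Genes named are, per list or family, up to 8 carriers in order of fold and up to 8 without a peak in alphabetical order, genes at the 10 widest and 10 strongest peaks, the 10 strongest far peaks, the 5 strongest far peaks in deserts, the 10 genes with most peaks and the 5 chromosomes with most and fewest peaks per gene. Other genes named were chosen after their values were seen. Some items that this rule names are not reported here. The planned comparison of CpG content needs a genome sequence and was not run.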

Additional observations from a re-analysis of the deposited data

Results flagged for a closer look

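The deposited H3K4me3 list also held 96 peaks on 34 sequences outside the assembled chromosomes, 0.859% of its peaks, which entered no comparison. They are given because they lie outside the comparisons, and no test was made of them. These peaks had a median fold of 8.31 (1.52 to 231) and a median width of 509 bp, and up to 14 lay on a single sequence. With them included, 76.6% of peaks were within 1 kb of a coding gene end on the assembled chromosomes and 12.9% counted as over 5 kb away. Only genes on the assembled chromosomes were used, so every peak on these sequences counted as far.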

How the results depend on the processing

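Of 64 alternative values, 18 stayed within the main value's interval or within 1.5 times a count, and 46 moved. With a window of 500 bp, 73.3% of peaks were at ends, with a median width of 1147 bp, and 55.1% of genes were marked (64.3% with a symbol, 18.2% LOC). At 2.5 kb these values were 83.3%, 1080 bp, 60.7%, 69.9% and 23.6%. With a −log10 q of at least 5, which kept 95.1% of peaks, 79% were at ends (1143 bp) and 11.2% far, 56.4% of genes and 65.5% of those with a symbol were marked, and H3K27me3, EZH2 and SUZ12 overlapped 16.5%, 72.6% and 80.3% of peaks.

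The upper 5540 peaks by fold moved most values. Of these, 88.9% were at ends (1422 bp) and 6.71% far. They marked 36.9% of genes, 43.1% of those with a symbol and 11.8% of LOC genes, and 2 families stood at 90% or more and 27 at 30% or less. The ratio of density in gene-rich windows to that in deserts was 713, with a wide interval of 244 to 3461, against 147 (101 to 223) with all peaks. That of chromosomes of 5 to 20 Mb to those of 40 Mb or more was 3.37, against 3 (2.87 to 3.14). Of these peaks 8.52% overlapped H3K27me3, 77.3% EZH2, 89.8% SUZ12, 41.9% JARID2 and 34.5% AEBP2.

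Placing peaks by summit gave 74% at ends and 54.6% of genes marked. Far peaks were 12.9% with all sequences and 9.79% with ends of all annotated genes. Among genes with a symbol alone, 66.4% were marked. Peaks stitched across 1 kb had a median width of 1206 bp at ends. Deserts of at least 250 kb gave a ratio of 96. With the neuronal and marker lists added, chosen after seeing the data, the share of other-tissue carriers with a shared peak was 55.1%, against 83.3% over 7 lists. Requiring an overlap of at least 50% of the peak left 13.1% overlapping H3K27me3, 41.4% EZH2, 47.7% SUZ12, 9.9% JARID2 and 7.26% AEBP2.

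No paired analysis was possible because there is 1 list per antibody and its columns carry no replicate. Leaving out a replicate was not possible for the same reason, and the planned CpG alternatives were not run, since they need a genome sequence. Unknown depth limits the weakest peaks most, and absence of a peak says only that none passed the authors' threshold.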

Other observations

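Noncoding genes were not part of the comparisons above. A peak lay within 1 kb of an end of 1142 of 5741 lncRNA genes (19.9%, 18.9 to 20.9), but of only 99 of the 3054 (3.24%) that are over 5 kb from any coding gene end. For miRNA genes the counts were 144 of 799 (18%) and, among those far from coding ends, 25 of 454 (5.51%). Genes of snoRNAs, which guide the modification of ribosomal RNA and often lie in introns of ribosomal protein genes, were marked at 66 of 185 (35.7%, 28.8 to 43), with a median fold of 31.9, and at 2 of 39 far from coding ends. Genes of tRNAs, made by RNA polymerase III, were marked at 50 of 274 (18.2%), and at 0 of 104 far from coding ends. Antigen receptor V segments were marked at 0 of 68 (0 to 5.28).

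Of neuronal vesicle and synapse genes 14 of 29 were marked (48.3%, 29.4 to 67.5), among them TUBB3 at 58.5, RBFOX3 at 56.2 and STX1A at 21.6. TUBB3 shares its peak with DEF8, and RBFOX3 with CBX2. Of RAB genes, which direct vesicle traffic, 48 of 56 were marked, with RAB6A at 78.7.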
